A study of Homo sapiens with 18 samples.

Results

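The 10 genes described here are those most often read as markers and regulators of the epithelial-mesenchymal transition (EMT), and they were found by matching the gene identifiers of both count tables to gene symbols. All 10 were present among 58825 genes: the epithelial genes CDH1 and EPCAM, the mesenchymal genes CDH2, VIM and FN1, and the transcription factor genes SNAI1, SNAI2, ZEB1, ZEB2 and TWIST1. Their RNA was measured in OVCAR-3, an established cell line of ovarian carcinoma that the study uses as a model of high-grade serous disease. Cells grown as monolayers in stripped medium received the vehicle DMSO, 1 µM i-BET858 or 1 µM i-BET151 for 4 h or 24 h. Each of the 6 conditions had 3 biological replicates, giving 18 libraries, prepared from total RNA with poly-A enrichment. These are bulk samples of a single line, so fewer cells of a kind and less RNA per cell cannot be told apart.

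Library totals ran from 27323969 to 46299994 counts, so 3 counts, the limit that a count of 0 allows, corresponded to 0.065 to 0.109 CPM (counts scaled to the TMM-adjusted library size). Such limits cover counting error only. The replicate 3 libraries stood apart from the others: they had a count for 17817 to 20642 genes, against 23674 to 24947 in replicates 1 and 2. Values from replicates 1 and 2 alone are therefore given beside many of the results. Each replicate 3 library carries a different source name in the labels from replicates 1 and 2, and whether this marks a separate batch was not tested.

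In EMT, epithelial cells loosen their junctions and take up the features of motile mesenchymal cells. CDH1 (E-cadherin) and EPCAM hold epithelial cells together, whereas CDH2 (N-cadherin), the intermediate filament protein VIM (vimentin) and the matrix protein FN1 (fibronectin) belong to the mesenchymal state. SNAI1, SNAI2, ZEB1, ZEB2 and TWIST1 encode DNA-binding factors that drive the switch, and the Snail and ZEB proteins are best known for repressing CDH1 through E-box sequences. Both compounds are BET inhibitors, which block the binding of bromodomain proteins of the BET family to acetylated lysines on chromatin. Ovarian carcinoma cells often carry epithelial and mesenchymal markers side by side.

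The letters CAGGTG, which read CACCTG on the opposite strand, form the E-box bound by Snail and ZEB factors. Because SNAI1 was the tested member with the highest fold change, promoters of members were searched for these letters in the RefSeq table of build GRCh38.p14. Windows of CDH2, VIM, FN1, ZEB1 and ZEB2 were searched. Those of CDH1, EPCAM, SNAI1, SNAI2 and TWIST1 were not, so the search does not cover CDH1. The 250 bases before the transcription start are given for the 3 mesenchymal genes and ZEB1, using the start nearest to that of the GENCODE gene. FN1 lies at chr2:215436069-215436318 on the minus strand, VIM at chr10:17227991-17228240 on the plus strand, CDH2 at chr18:28177131-28177380 on the minus strand and ZEB1 at chr10:31318167-31318416 on the plus strand. Capitals mark the E-box letters in ZEB1 and the cyclic AMP response element letters TGACGTCA, the same on both strands, in FN1.
FN1: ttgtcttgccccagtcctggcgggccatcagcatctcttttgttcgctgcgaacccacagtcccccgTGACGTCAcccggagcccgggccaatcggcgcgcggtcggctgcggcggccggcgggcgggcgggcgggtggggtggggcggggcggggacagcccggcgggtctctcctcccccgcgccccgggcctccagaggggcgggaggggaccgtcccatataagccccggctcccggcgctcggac
VIM: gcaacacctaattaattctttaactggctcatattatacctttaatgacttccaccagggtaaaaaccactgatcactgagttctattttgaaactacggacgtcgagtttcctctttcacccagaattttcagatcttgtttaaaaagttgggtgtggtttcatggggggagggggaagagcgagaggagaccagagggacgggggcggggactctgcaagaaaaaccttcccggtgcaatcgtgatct
CDH2: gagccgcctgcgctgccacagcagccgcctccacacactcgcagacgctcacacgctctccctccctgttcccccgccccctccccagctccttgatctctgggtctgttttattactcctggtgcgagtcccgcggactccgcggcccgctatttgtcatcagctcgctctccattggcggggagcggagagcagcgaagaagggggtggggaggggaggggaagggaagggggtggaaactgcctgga
ZEB1: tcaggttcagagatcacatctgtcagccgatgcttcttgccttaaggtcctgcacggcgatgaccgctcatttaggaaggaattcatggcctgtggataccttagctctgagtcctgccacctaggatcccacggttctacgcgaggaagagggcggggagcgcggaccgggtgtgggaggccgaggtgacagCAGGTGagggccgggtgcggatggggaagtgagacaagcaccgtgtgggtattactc
The 5 genes had 12 windows in the table, 7 of them of ZEB1, and ZEB2 had 1. The E-box letters occurred 3 times in 2 of the 12 windows, both of ZEB1, and in the printed one their first letter was at position -57 from the start. The other two matches were in a further ZEB1 window. TGACGTCA occurred in 1 window, that of FN1, from position -183. Of all 35116 promoter windows of 250 bases in the table, 17.5% held CAGGTG or CACCTG and 1.65% held TGACGTCA. A match describes letters in a window and says nothing of binding in these cells.

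The epithelial label of the line was checked against markers. Among 9 genes of serous ovarian epithelium, PAX8 averaged 487 CPM over the 18 libraries, WT1 137 CPM, MUC16 227 CPM and KRT8 5369 CPM, while ESR1 averaged 0.435 CPM and was at 0 in 2 libraries. The fibroblast markers DCN and LUM had no count in 14 and 12 of the 18 libraries, although COL1A1 averaged 30.2 CPM. Of 3 leukocyte genes, CD3E had no count in 16 libraries, PTPRC in 9 and LYZ in 3, and none exceeded 0.590 CPM in any library. Of 3 endothelial genes, VWF was detected in all 18 libraries with a mean of 2.70 CPM, while PECAM1 averaged 0.165 CPM and CDH5 0.142 CPM.

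Levels of the members spanned a wide range. Compared per kilobase of exons, EPCAM was the highest with a mean of 181 CPM per kb over the 18 libraries, followed by CDH1 with 63.9 CPM per kb. SNAI1 followed with 4.74 CPM per kb, FN1 with 1.85, TWIST1 with 1.42, CDH2 with 0.969 and VIM with 0.223 CPM per kb. SNAI2, ZEB1 and ZEB2 were barely detected, with totals of 31, 40 and 15 counts in all 18 libraries. The epithelial genes were thus far above the mesenchymal genes in every condition, and of the 5 transcription factor genes only SNAI1 and TWIST1 had at least 42 counts in each library.

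**Figure D1:**
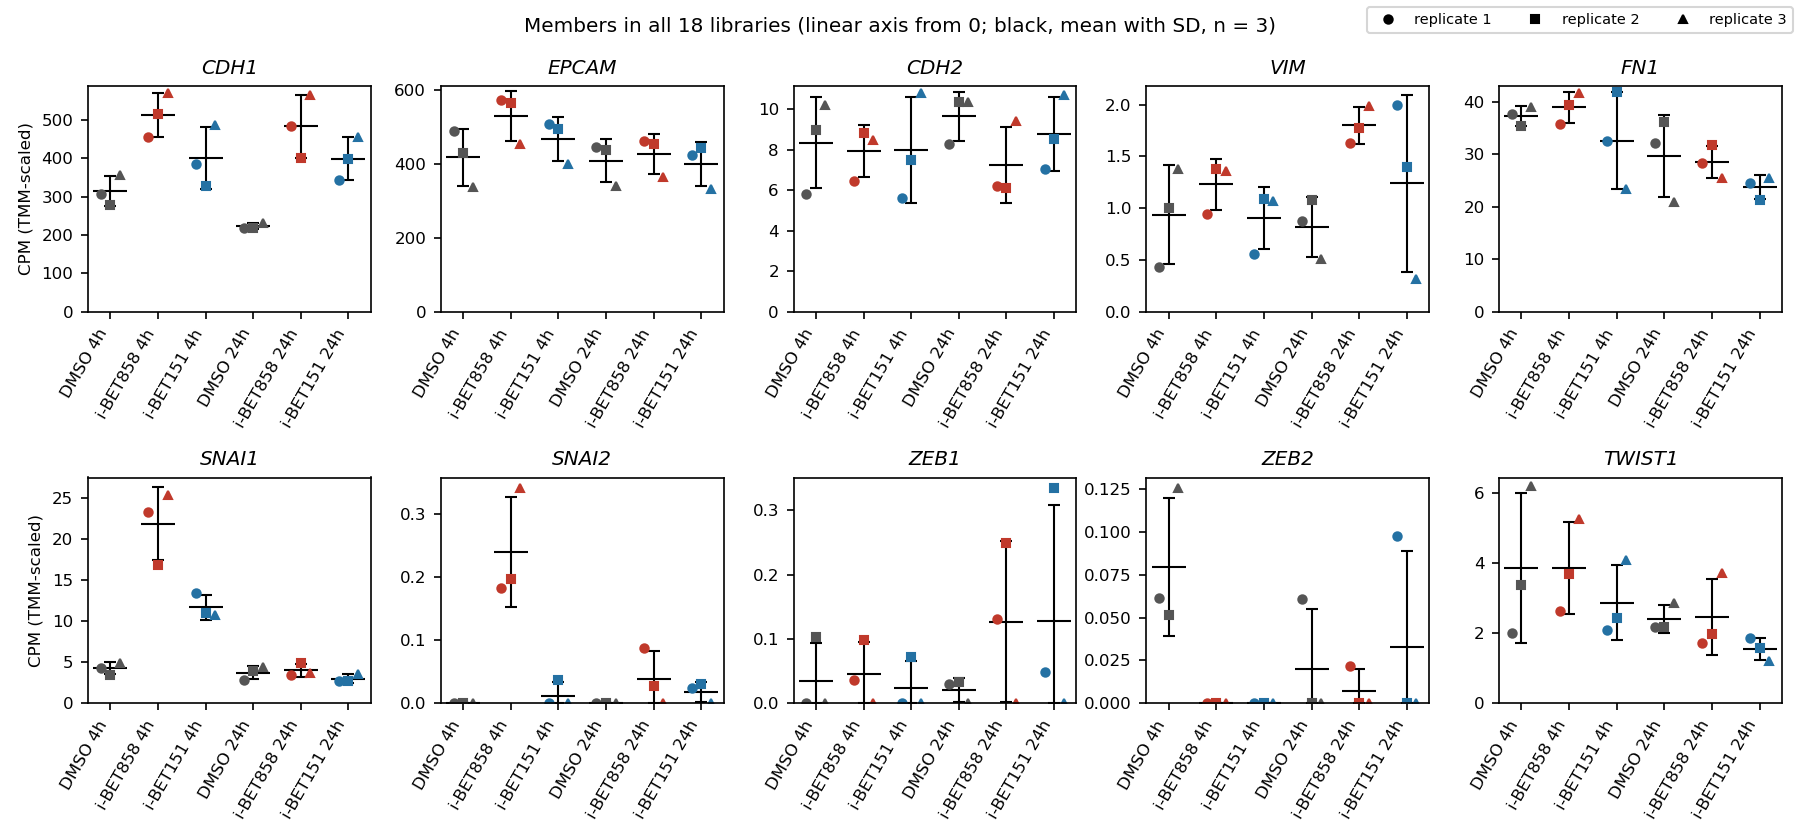
CPM of the 10 members (linear axes from 0, a scale for each gene) in the 18 libraries, grouped by condition; points are libraries, shaped by replicate number, and black marks are means with SD (n = 3). SNAI1 is high with both inhibitors at 4 h and back near DMSO at 24 h, CDH1 is high with both at 24 h, and SNAI2, ZEB1 and ZEB2 stay below 0.4 CPM.

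Each inhibitor was compared with DMSO of the same time by edgeR's quasi-likelihood test on raw counts, with Benjamini-Hochberg adjustment over all genes tested. A gene passed the test at an adjusted p below 0.05. Of the 10 members, 7 had enough counts to be tested, and SNAI2, ZEB1 and ZEB2 did not. With i-BET858 at 4 h, 2 of the 7 rose (CDH1 and SNAI1), beside 30.8% of all 17192 genes that passed in either direction. With i-BET151 at 4 h, SNAI1 rose, beside 16.2% of all genes. At 24 h CDH1 was the only member to pass with i-BET858, beside 41.7% of all 17157 genes, and the only member to pass with i-BET151, beside 33.8%. No member fell in any of these 4 comparisons, and the share of members that passed was near or below that of all genes.

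CDH1 codes for E-cadherin, the adhesion molecule of epithelial junctions, and lies on chromosome 16 from 68737292 to 68835537 (GRCh38, plus strand). At 4 h it measured 308, 278 and 357 CPM in the DMSO replicates and 455, 514 and 569 CPM with i-BET858. The i-BET151 replicates measured 385, 328 and 487 CPM. All i-BET858 libraries were above all DMSO libraries, whereas the i-BET151 range overlapped both. The rise with i-BET858 was 1.64-fold (log2 fold change 0.71, SE 0.16, n = 3, edgeR adjusted p = 0.00492). Under i-BET151 it was 0.34 (SE 0.16, edgeR adjusted p = 0.165), and this difference passed when the replicate number was a block (adjusted p = 0.00742).

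At 24 h CDH1 was at 218, 218 and 232 CPM with DMSO, at 483, 400 and 565 CPM under i-BET858 and at 342, 399 and 456 CPM under i-BET151. Neither inhibitor's range touched that of DMSO, and the 2 inhibitors' ranges overlapped. CDH1 rose 2.11-fold with i-BET858 (log2 fold change 1.08, SE 0.14, edgeR adjusted p = 0.000157) and 1.76-fold with i-BET151 (0.82, SE 0.14, edgeR adjusted p = 0.00128). In replicates 1 and 2 alone the log2 fold changes were 0.99 and 0.73, and replicate 3 alone gave 1.28 and 0.97. The order of mean levels was i-BET858 at 4 h, i-BET858 at 24 h, i-BET151 at 4 h, i-BET151 at 24 h, DMSO at 4 h and DMSO at 24 h. Neighbours in this order overlapped in range except for the DMSO groups, which did not.

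EPCAM, the epithelial cell adhesion molecule used to capture carcinoma cells, was abundant in all conditions, between 331 and 571 CPM. At 4 h the DMSO replicates measured 487, 429 and 336 CPM, and those of i-BET858 571, 565 and 452 CPM. Replicate 3 was the lowest of every condition. The log2 fold change with i-BET858 at 4 h was 0.35 (SE 0.15, edgeR adjusted p = 0.113), and it passed with the replicate block (adjusted p = 0.000621) and in replicates 1 and 2 alone (adjusted p = 0.0311). At 24 h the log2 fold changes were 0.02 with i-BET858 (95% interval -0.29 to 0.34) and -0.05 with i-BET151 (95% interval -0.37 to 0.26).

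The mesenchymal genes were low, and none passed the test against DMSO. CDH2, the N-cadherin gene, measured 8.27, 10.4 and 10.3 CPM with DMSO at 24 h and 6.22, 6.11 and 9.41 CPM with i-BET858. The i-BET858 libraries of replicates 1 and 2 lay below all DMSO libraries and replicate 3 lay among them. The log2 fold change was -0.46 (SE 0.23, edgeR adjusted p = 0.135). It passed with the replicate block (adjusted p = 0.0212), in replicates 1 and 2 alone (-0.62, adjusted p = 0.00418) and without i-BET858 24 h replicate 3 (-0.67, adjusted p = 0.0359). With i-BET151 at 24 h it was -0.16, and at 4 h it was -0.07 and -0.06 with i-BET858 and i-BET151.

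VIM, the vimentin gene, had 11 to 82 counts per library. At 24 h it was at 0.878, 1.08 and 0.509 CPM with DMSO and at 1.63, 1.78 and 1.99 CPM with i-BET858, without overlap. The i-BET151 libraries were at 2.0, 1.40 and 0.320 CPM, so replicate 3 was below all DMSO libraries and the other two above them. The log2 fold changes were 1.09 (SE 0.57, edgeR adjusted p = 0.155) and 0.58 (SE 0.58, edgeR adjusted p = 0.488). Leaving out 1 library moved the i-BET151 value between 0.03 (without i-BET151 24 h replicate 1) and 1.02 (without i-BET151 24 h replicate 3), and it did not pass in either case. In replicates 1 and 2 alone both passed, at 0.77 (adjusted p = 0.0327) under i-BET858 and 0.77 (adjusted p = 0.0372) under i-BET151. Of the 5176 exon bases of VIM, 1275 overlap genes of the opposite strand, VIM-AS1 among them. The strand setting of the counting is not given in the sources used here, so reads of VIM and its antisense partner cannot be told apart.

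FN1, which encodes fibronectin of the extracellular matrix, was the most abundant of the 3 mesenchymal genes. It was at 32.2, 36.1 and 21.0 CPM with DMSO at 24 h, at 28.3, 31.8 and 25.6 CPM under i-BET858 and at 24.5, 21.3 and 25.5 CPM under i-BET151. The DMSO replicate 3 library was below every inhibitor library, while the other two DMSO libraries were above all of them. The log2 fold changes were -0.10 (SE 0.18, edgeR adjusted p = 0.712) and -0.34 (SE 0.18, edgeR adjusted p = 0.178). The difference with i-BET151 passed in replicates 1 and 2 alone (-0.61, adjusted p = 0.000491) and without DMSO 24 h replicate 3 (-0.52, adjusted p = 0.0156). At 4 h the log2 fold changes were 0.07 and -0.20.

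The balance of the 2 cadherins is a common summary of EMT. CDH1 over CDH2, each per kilobase of exons, was 29.7 to 37.3 with DMSO at 24 h, 84.7 to 110 under i-BET858 and 60.3 to 68.5 under i-BET151. The geometric means were 32.7, 95.1 and 64.8, and no range overlapped another. The exact permutation test on the log2 ratio, two-sided, gave p = 0.1 for each inhibitor, the smallest p that 3 against 3 allows. At 4 h the ratio was 43.7 to 74.6 with DMSO, 82.3 to 99.5 with i-BET858 (exact permutation p = 0.1) and 61.9 to 96.6 with i-BET151 (exact permutation p = 0.3). EPCAM over VIM, also per kilobase of exons, went the other way with i-BET858 at 24 h. It was 865 to 1424 with DMSO, 390 to 601 with i-BET858 and 450 to 2200 with i-BET151. At 4 h all group ranges of EPCAM over VIM overlapped. VIM had only 11 to 82 counts per library, and EPCAM over VIM was not tested.

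SNAI1 codes for Snail, the zinc finger factor that represses CDH1 in EMT, and lies on chromosome 20 from 49982980 to 49988886 (GRCh38, plus strand). At 4 h it was at 4.33, 3.48 and 4.95 CPM with DMSO, at 23.3, 16.9 and 25.4 CPM under i-BET858 and at 13.5, 10.9 and 10.7 CPM under i-BET151. The 3 groups did not overlap. SNAI1 rose 5.16-fold with i-BET858 (log2 fold change 2.37, SE 0.22, edgeR adjusted p = 1.63e-05) and 2.75-fold with i-BET151 (1.46, SE 0.21, edgeR adjusted p = 0.000948). In replicate 3 alone the log2 fold changes were 2.36 and 1.11.

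At 24 h SNAI1 was at 2.88, 3.90 and 4.43 CPM with DMSO, at 3.42, 4.89 and 3.74 CPM under i-BET858 and at 2.66, 2.68 and 3.61 CPM under i-BET151. All 3 groups overlapped. The log2 fold changes were 0.06 (95% interval -0.52 to 0.64) and -0.35 (95% interval -0.93 to 0.24), with edgeR adjusted p-values of 0.873 and 0.350. The upper ends of these intervals lay below the log2 fold changes of 4 h. CDH1, the gene that Snail is known to repress, was higher with i-BET858 at both times.

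SNAI2, the gene of the related factor Slug, had no count in any of the 6 DMSO libraries. With i-BET858 at 4 h it had 5, 6 and 12 counts, and with i-BET151 at 4 h 0, 1 and 0 counts. At 24 h it had 4, 1 and 0 counts under i-BET858 and 1, 1 and 0 under i-BET151. Summed over the group, i-BET858 at 4 h gave 0.247 CPM (exact Poisson 95% interval 0.157 to 0.371). This estimate was 8.51-fold the floor of 3 counts over the DMSO group (0.0290 CPM), which is not a lower bound on the fold change. The exact Poisson upper limit for DMSO was 0.0357 CPM, below the lower end of the i-BET858 interval. These limits cover counting error only. SNAI2 was below the filter of the main test, and without a filter it passed for i-BET858 at 4 h (edgeR adjusted p = 0.0438).

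The ZEB genes, repressors of CDH1 that are high in mesenchymal cells, were near the detection limit. ZEB1 had 0 to 11 counts per library and none in any replicate 3 library. At 24 h replicates 1 and 2 had 6 and 9 counts under i-BET858, 2 and 11 under i-BET151, and 1 and 1 with DMSO. At 4 h its highest count was 4, in a DMSO library. Without a filter, edgeR gave adjusted p-values of 0.419 and 0.460 at 24 h. ZEB2 had 2, 2 and 4 counts with DMSO at 4 h and none in the 6 inhibitor libraries of 4 h. Without a filter the adjusted p-values were 0.253 and 0.333, and a difference was not detectable at this depth.

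TWIST1, a helix-loop-helix factor of EMT, spread widely between replicates. At 24 h it was at 2.18, 2.19 and 2.87 CPM with DMSO, at 1.72, 1.97 and 3.71 CPM under i-BET858 and at 1.85, 1.58 and 1.22 CPM under i-BET151. Every i-BET151 library was below every DMSO library. The i-BET151 log2 fold change was -0.66 (SE 0.36, edgeR adjusted p = 0.189), and that with i-BET858 was -0.01 (SE 0.35). At 4 h DMSO ranged from 2.0 to 6.20 CPM and covered both inhibitors' values.

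**Figure D2:**
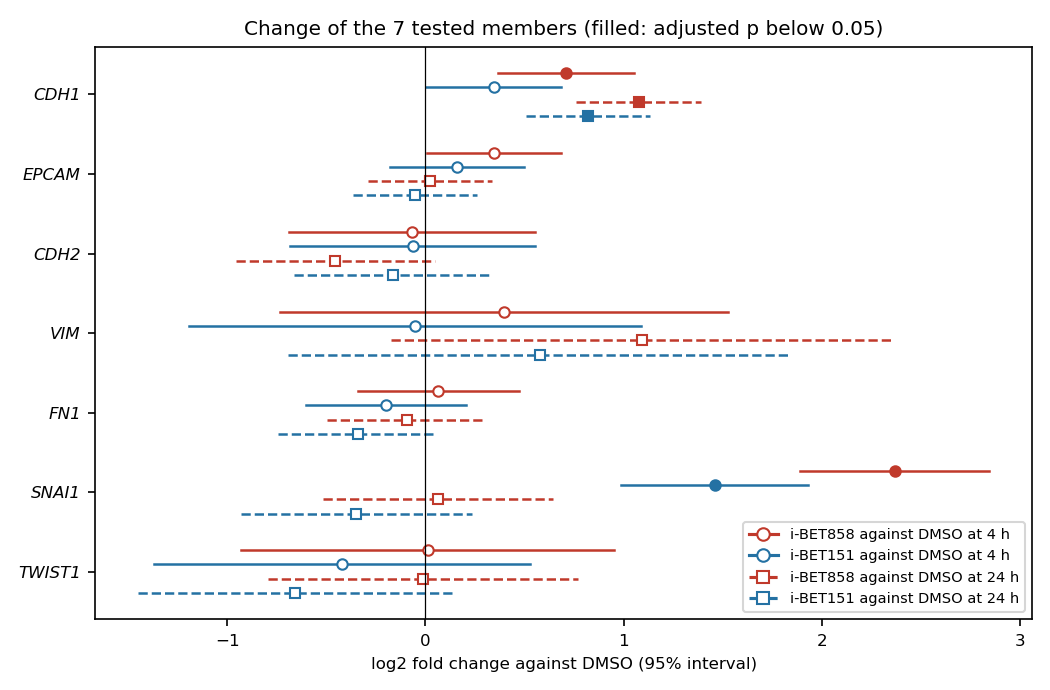
Log2 fold change of the 7 tested members against DMSO with 95% intervals from the edgeR fit; circles are 4 h, squares 24 h, red i-BET858, blue i-BET151, and filled symbols passed at an adjusted p below 0.05. The filled symbols are CDH1 (0.71, 1.08 and 0.82) and SNAI1 (2.37 and 1.46), and the widest intervals belong to VIM and TWIST1.

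The 2 inhibitors were compared directly at the same dose and times. Of the 7 tested members, 0 passed at 4 h, where 0.971% of all genes did. At an unadjusted p below 0.05 there were 2, CDH1 and SNAI1, and DESeq2 called 1. SNAI1 was higher with i-BET858 by 0.91 on the log2 scale (95% interval 0.45 to 1.36, edgeR adjusted p = 0.0660), in all 9 pairs of libraries. This difference passed with the replicate block (adjusted p = 0.00277) and with DESeq2 (adjusted p = 0.00231). CDH1 was higher by 0.37 (95% interval 0.02 to 0.71, edgeR adjusted p = 0.376) and passed with the replicate block (adjusted p = 0.0120).

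At 24 h 0 of the 7 members differed between the inhibitors by edgeR or DESeq2, 0 at an unadjusted p below 0.05, beside 0.21% of all genes. The CDH1 difference was 0.26 (95% interval -0.05 to 0.57) and that of SNAI1 0.41 (95% interval -0.17 to 0.99). FN1 was 0.25 higher with i-BET858 (95% interval -0.15 to 0.65) and passed in replicates 1 and 2 alone (0.40, adjusted p = 0.0457). The intervals for VIM (-0.72 to 1.75) and TWIST1 (-0.14 to 1.44) leave room for more than 2-fold.

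Whether an effect differed between 4 h and 24 h was tested in a fit over all 18 libraries. SNAI1 was the only tested member to pass. Its i-BET858 effect fell by 2.26 (SE 0.32, edgeR adjusted p = 6.56e-05) and its i-BET151 effect fell by 1.79 (SE 0.32, edgeR adjusted p = 0.00150) on the log2 scale. Of all 18154 genes, 27.2% and 13.8% passed for the 2 inhibitors. The CDH1 effects were larger at 24 h by 0.41 (edgeR adjusted p = 0.179) and 0.49 (edgeR adjusted p = 0.145), and both passed with the replicate block (adjusted p = 0.025 and 0.00975). The EPCAM effect of i-BET858 was smaller at 24 h by a log2 difference of -0.28 (edgeR adjusted p = 0.394), which passed with the block (adjusted p = 0.0257).

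The DMSO libraries themselves were compared between the times, where 0.0386% of all genes passed. Of the 7 members 0 passed by edgeR or DESeq2, and CDH1 alone had an unadjusted p below 0.05. CDH1 was lower at 24 h by a log2 difference of -0.50 (95% interval -0.82 to -0.17, edgeR adjusted p = 0.252), lower in 9 of 9 pairs, and it passed with the replicate block (adjusted p = 0.0112). The CDH1 level with i-BET858 was 513 CPM at 4 h and 483 CPM at 24 h, so the larger fold at 24 h came beside a lower DMSO level.

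The genes whose profile over the 18 libraries was nearest to that of CDH1 and SNAI1, the members that passed the test with at least a 2-fold change, were found among 13928 genes with a mean of at least 1 CPM. Nearness was the root mean square difference of log2 CPM, centred on each gene's mean. For CDH1 these were TSC22D2 (0.104), ZNF185 (0.116) and IRS2 (0.122), against a spread of 0.434 for CDH1 itself. TSC22D2 went from 56.1 CPM with DMSO at 24 h to 121 CPM with i-BET858, and IRS2, an adaptor of insulin signalling, from 71.9 to 181 CPM. For SNAI1 they were DLX5 (0.273), CEBPA (0.317) and HSPA2 (0.330), against a spread of 1.05. CEBPA, a differentiation factor, went from 3.03 CPM with DMSO to 19.2 CPM under i-BET858 and 10.1 CPM under i-BET151 at 4 h. The points share libraries, so these are descriptions without a test.

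**Figure D3:**
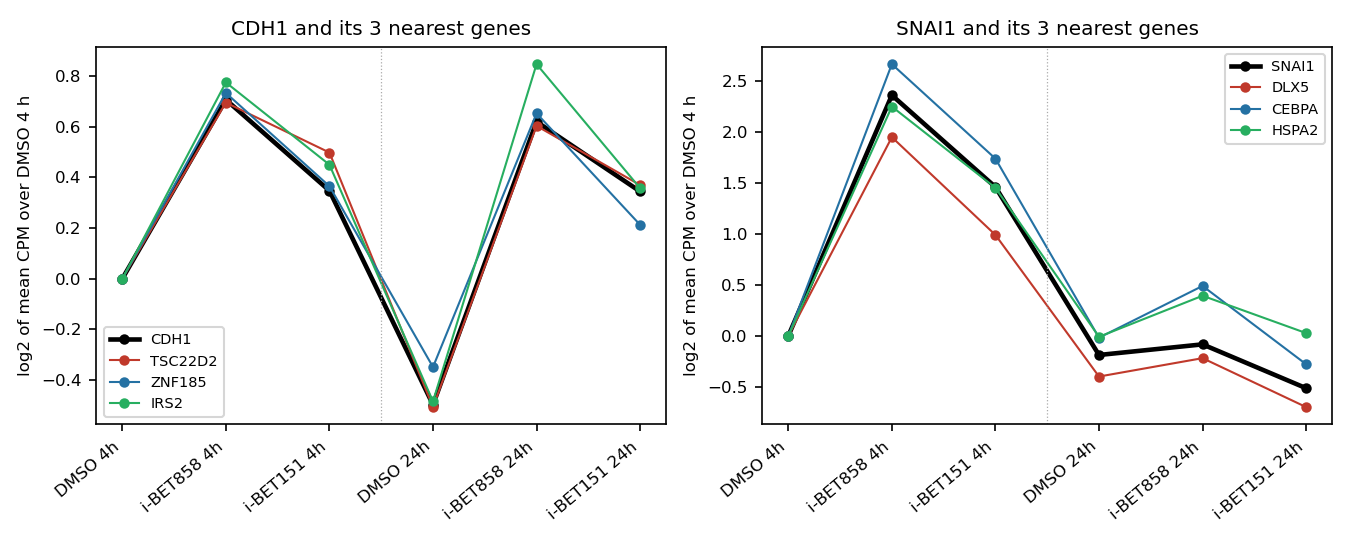
Log2 of mean CPM over the mean CPM of DMSO at 4 h for CDH1 and SNAI1 (black) and their 3 nearest genes, by condition; the dotted line separates 4 h from 24 h. The CDH1 group has its lowest point at DMSO 24 h, and the SNAI1 group peaks with i-BET858 at 4 h, where SNAI1 averages 21.8 CPM.

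Other genes of the EMT programme were counted in 5 lists. In the same 4 comparisons the shares of all genes that rose and fell were 14.5% and 16.3% for i-BET858 at 4 h, 7.81% and 8.43% for i-BET151 at 4 h, 20.5% and 21.3% for i-BET858 at 24 h, and 17.2% and 16.6% for i-BET151 at 24 h. With scaling by total counts, 1746 genes rose and 3718 fell for i-BET858 at 4 h, against 2497 and 2806 here. Of 12 other EMT transcription factors 9 were tested. With i-BET858 at 4 h 2 rose, FOXQ1 (0.56) among them, and 1 fell, TCF4 (-0.61). In replicates 1 and 2 alone FOXQ1 did not pass (0.48, adjusted p = 0.0830). At 24 h 0 rose and 6 fell with i-BET858, and 0 rose and 5 fell with i-BET151. In replicates 1 and 2 alone 8 and 7 fell. GSC, a homeobox factor, went from 2.98 CPM with DMSO to 0.674 CPM with i-BET858 (-2.17, edgeR adjusted p = 0.00706), LEF1 fell by 1.19 with i-BET858, and TCF4, an E-protein, fell by 0.86 with i-BET151. The median log2 fold change of the 9 was -0.85 and -0.75 at 24 h, against -0.01 and 0.00 over all genes.

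All 11 regulators of epithelial transcription and splicing were tested, and at 4 h 4 rose and 6 fell under i-BET858 and 3 rose and 6 fell under i-BET151. KLF4 rose from 16.7 CPM to 67.5 CPM with i-BET858 (2.02, edgeR adjusted p = 1.60e-05) and to 35.9 CPM with i-BET151 (1.10, edgeR adjusted p = 0.00185). KLF4 is a zinc finger factor of epithelial differentiation, and it also differed directly between the inhibitors at 4 h, by 0.91 (edgeR adjusted p = 0.0400). OVOL1 rose with i-BET858 (1.47), whereas its relative OVOL2 fell by 1.74 and 1.54 with the 2 inhibitors at 4 h. EHF, an ETS factor of epithelia, fell from 148 CPM with DMSO at 24 h to 24.8 and 23.9 CPM (-2.62 and -2.65). GRHL3 fell by 1.28 and 1.45 at 24 h, while GRHL1, of the same grainyhead family, rose by 0.66 and 0.78. KLF5 rose in all 4 comparisons, by 0.32 to 0.62. Over this list 3 rose and 5 fell with i-BET858 at 24 h, and 2 rose and 5 fell with i-BET151. In replicates 1 and 2 alone these counts were 4 and 7, and 3 and 6, and at 4 h 2 rose and 6 fell with i-BET151.

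Of 9 other cadherins and catenins 6 were tested. JUP (plakoglobin), which links cadherins to the cytoskeleton, rose with i-BET858 at 4 h (0.66) and 24 h (0.80) and with i-BET151 at 24 h (0.51). CTNNB1 (beta-catenin) rose by 0.43 with i-BET858 at 4 h, and CTNNA1 (alpha-catenin) by 0.48 and 0.35 at 24 h. CDH6, a cadherin that is abundant in ovarian carcinoma, fell at 4 h by 0.69 and 0.70 from 1775 CPM, and CDH3 fell by 0.42 with i-BET858 at 24 h. The counts were 3 higher and 1 lower with i-BET858 at both times, and with i-BET151 0 higher and 1 lower at 4 h and 3 higher and 0 lower at 24 h. With the replicate block the counts at 4 h were 4 higher and 2 lower for i-BET858, and 2 and 2 for i-BET151. At 24 h replicates 1 and 2 alone gave 3 higher and 2 lower with each inhibitor.

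The 20 other genes of the epithelial surface and junctions were all tested. At 4 h 5 rose and 0 fell under i-BET858 and 2 rose and 0 fell under i-BET151, among them the protease gene ST14 (0.61 and 0.34) and the protease inhibitor gene SPINT2 (0.54 and 0.32). With the replicate block these counts became 9 higher and 3 lower, and 2 higher and 4 lower. In replicates 1 and 2 alone they were 7 and 3, and 1 and 2. At 24 h 6 rose and 6 fell with i-BET858, and 4 rose and 7 fell with i-BET151. The block gave 6 higher and 9 lower, and 4 higher and 9 lower, and replicates 1 and 2 alone gave 7 and 9, and 5 and 9. The desmosomal gene DSP rose by 0.86 and 0.92, and the tight junction gene TJP1 by 0.75 and 0.74. The mucin gene MUC1 fell from 29.7 CPM to 6.06 and 4.21 CPM (-2.34 and -2.84), and the keratin gene KRT18 fell by 1.36 and 1.03. The shares of all genes higher and lower at 24 h were 20.5% and 21.3% for i-BET858, and 17.2% and 16.6% for i-BET151.

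Of 30 other mesenchymal genes 24 were tested. At 4 h 2 rose with i-BET858, FSTL1 (0.38) among them, and 0 passed with i-BET151 by edgeR, with 2 at an unadjusted p below 0.05. With the replicate block 10 rose and 0 fell with i-BET858 at 4 h, and 3 rose and 2 fell with i-BET151. At 24 h 2 rose and 9 fell with i-BET858, and 2 rose and 7 fell with i-BET151. The block gave 3 and 12, and 3 and 10, and replicates 1 and 2 alone gave 3 and 15, and 3 and 14. At 4 h replicates 1 and 2 alone gave 9 higher and 0 lower for i-BET858, and 1 and 0 for i-BET151. The integrin gene ITGA5, the fibronectin receptor subunit, fell from 24.0 CPM to 8.32 and 8.45 CPM (-1.57 and -1.53), and the collagen cross-linking enzyme gene LOX fell by 2.28 and 1.75. NT5E (CD73) rose from 11.8 CPM to 49.1 and 34.3 CPM (2.01 and 1.52), and ITGB1 rose by 0.46 and 0.53. The medians of the list with i-BET858 and i-BET151 were 0.33 and 0.25 at 4 h, and -0.59 and -0.58 at 24 h.

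The 5 fibroblast markers are all in this mesenchymal list, and 3 of them were tested at 24 h. With i-BET858 at 24 h COL1A2 fell (-2.12, edgeR adjusted p = 0.0149), PDGFRB was at -1.52 and COL1A1 at -0.26, and with i-BET151 0 of the 3 passed by edgeR, 1 at an unadjusted p below 0.05. The replicate block gave 2 lower with i-BET858 and 1 lower with i-BET151 at 24 h. Replicates 1 and 2 alone gave 2 lower with each inhibitor. DCN and LUM, which define fibroblasts, were at or near 0, with at most 0.0218 and 0.255 CPM in any library at 24 h. The summed level of the 5 genes was 28.1 to 35.8 CPM with DMSO at 24 h, 21.4 to 32.0 CPM for i-BET858 and 23.4 to 28.2 CPM for i-BET151. The summed level of the 3 endothelial genes was 3.03 to 4.62, 1.58 to 1.98 and 0.578 to 3.87 CPM in the same groups, and CDH5 (VE-cadherin) averaged 0.299 CPM with DMSO, 0.00926 CPM with i-BET858 and had no count with i-BET151. The summed level of the 9 serous epithelial genes was 8256 to 9635 CPM with DMSO at 24 h. It was 6246 to 6620 CPM with i-BET858 and 6312 to 6805 CPM with i-BET151. Of these genes, SOX17 rose and KRT7, KRT8 and KRT18 fell with each inhibitor at 24 h. The part of other cell types in the change of the mesenchymal list was not tested.

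**Figure D4:**
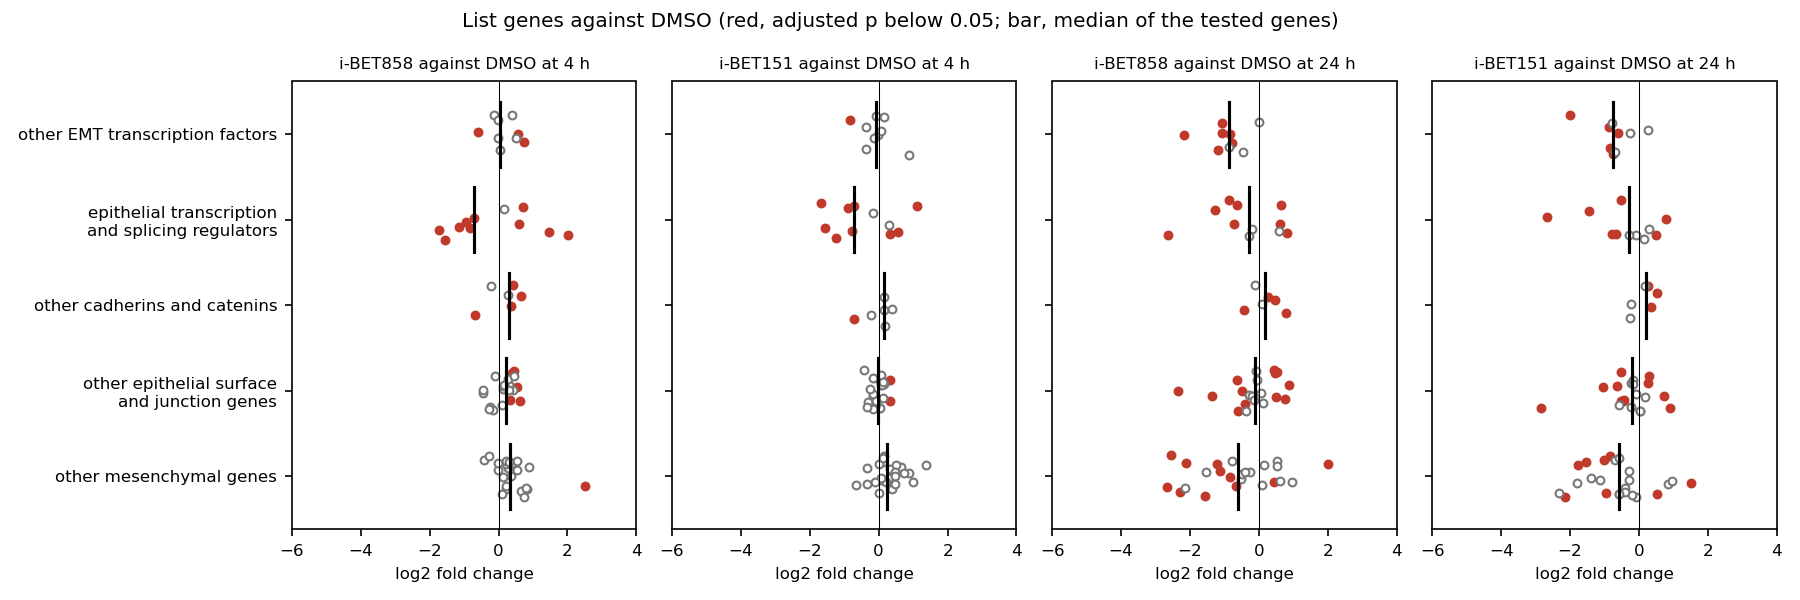
Log2 fold change against DMSO of each tested gene of 5 lists in the 4 comparisons; red points passed at an adjusted p below 0.05, open points did not, black bars are medians, and vertical scatter has no meaning. At 24 h the other mesenchymal genes have medians of -0.59 and -0.58, while the epithelial surface and junction genes lie on both sides of 0.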

How the data were processed

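RNA was measured in 18 OVCAR-3 libraries. Per the labels and the study's methods, the authors aligned the reads with STAR to GRCh38 (hg38) and deposited raw gene counts, 1 table for each time; the strand setting of the counting is not given in the sources used here, nor is a correction for PCR duplicates. Of the 58825 gene identifiers, 99.4% matched GENCODE 44, which supplied symbols, positions and exon lengths. CPM values were scaled by TMM over all 18 libraries. Counts were tested with edgeR 4.0.16 (filterByExpr, TMM, quasi-likelihood test) on the 9 libraries of a time, or on all 18 for changes between times, in R 4.3.3, with Benjamini-Hochberg adjustment over all genes tested and a threshold of 0.05. A fold change of at least 2 was an additional mark. Both steps were also run on simulated counts. These had the same dispersion for every gene and no replicate effect, so they do not model the deviation of replicate 3. DESeq2 1.42.0 was an alternative.

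The members and gene lists were chosen with earlier results of these data known. The text names all 10 members, up to 2 largest rises and falls per list and comparison among genes with a mean of at least 1 CPM, and the 3 nearest profiles of members that passed with at least a 2-fold change. Some genes that this rule names are not reported here. Deviations from the group means, in log2 CPM (prior count 2), were correlated between libraries of different groups. Same-numbered libraries gave 0.140 to 0.363 at 4 h and 0.160 to 0.353 at 24 h, every pair above 0.1. Differently numbered libraries gave -0.339 to 0.233 and -0.330 to 0.328, so the ranges overlapped. Replicate 3 stood apart in every group, and whether replicates 1 and 2 pair by number was not tested separately. The main test used no pairing, and the replicate block was an alternative. Chi-square per degree of freedom between replicates was at least 4.19, so no library was a second sequencing of another library of its group. This value cannot tell whether libraries came from the same RNA or culture. The p-values measure the spread between replicates of a single cell line. Other alternatives were size factors or total counts for scaling, other count filters, other sets of libraries, and leaving out each library.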

Additional observations from a re-analysis of the deposited data

Results flagged for a closer look

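The effect of both inhibitors on SNAI1 differed between the times by a test of the difference itself. The log2 fold change against DMSO was lower at 24 h than at 4 h by -2.26 with i-BET858 (edgeR adjusted p = 6.56e-05) and by -1.79 with i-BET151 (edgeR adjusted p = 0.00150). With i-BET858, SNAI1 averaged 21.8 CPM at 4 h and 4.02 CPM at 24 h, and with i-BET151 11.7 and 2.98 CPM. DMSO averaged 4.25 and 3.74 CPM.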

How the results depend on the processing

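The calls of CDH1 with i-BET858 at 4 h and 24 h and with i-BET151 at 24 h, and those of SNAI1 at 4 h and of its change to 24 h, kept their direction and passed the test under every alternative run on adjusted p alone. Of 986 values of single genes under alternatives, 897 kept their direction and side of the threshold, 23 newly passed, 0 no longer passed and 66 changed direction. Asking for a 2-fold change as well left 1 member with i-BET858 at 4 h (SNAI1) and 0 with i-BET151 at 24 h. With the replicate block 2 members passed with i-BET151 at 4 h, 2 with i-BET858 at 24 h, 2 between the inhibitors at 4 h, 3 and 2 for the changes of the i-BET858 and i-BET151 effects and 1 between the DMSO groups. Apart from these and EPCAM with i-BET858 at 4 h, the block changed no other call. With replicates 1 and 2 only, 3 members passed with each inhibitor at 24 h, 1 between the inhibitors at 24 h and 3 for the change of the i-BET151 effect (CDH1 0.46, FN1 -0.62, SNAI1 -2.01). Between the inhibitors at 4 h 1 member (SNAI1) passed with DESeq2, without a count filter and with all 18 libraries, and without a filter 1 (CDH1) passed between the DMSO groups. Leaving out each library gave 1 to 2 members at 24 h with either inhibitor.

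Scaling by total counts moved the median over all genes with i-BET858 at 4 h from 0.02 to -0.14, where SNAI1 was at 2.21 and CDH1 at 0.55. The changes of direction were in values that did not pass the main test, and no reversed value passed. The FN1 change of the i-BET151 effect turned when 1 library was left out. In replicates 1 and 2 alone it kept its direction and passed (-0.62, edgeR adjusted p = 0.0291). The cause of the changes of direction was not tested. Total counts turned FN1 (-0.095) and TWIST1 (-0.16) with i-BET858 at 4 h, EPCAM (-0.065) and SNAI1 (-0.016) with i-BET858 at 24 h and EPCAM between the DMSO groups (0.013). Replicates 1 and 2 only turned CDH2 with i-BET858 (0.043) and VIM (0.17) and FN1 (0.019) with i-BET151 at 4 h, CDH2 between the inhibitors at 4 h (0.23), VIM between them at 24 h (-0.0023), the TWIST1 change with i-BET858 (-0.49) and VIM between the DMSO groups (0.42). No filter turned TWIST1 with i-BET858 at 4 h (-0.00167) and 24 h (0.010), and a fit of all 18 libraries turned it at 24 h (0.029). The block turned VIM with i-BET151 at 4 h (0.00055). CDH2 between the inhibitors at 4 h was 0.030 with the block, 0.0037 with DESeq2, 0.0043 with its size factors and 0.0019 with at least 10 counts in every library. The TWIST1 change with i-BET858 was -0.087, -0.024, -0.025 and -0.0634 under the same 4 settings.

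Leaving out each library in turn gave, at 4 h, -0.28 to 0.093 for CDH2 and -0.31 to 0.52 for TWIST1 with i-BET858, -0.35 to 0.13 for CDH2, -0.40 to 0.33 for VIM and -0.77 to 0.098 for TWIST1 with i-BET151, and -0.21 to 0.28 for CDH2 between the inhibitors. At 24 h it gave -0.061 to 0.14 for EPCAM, -0.27 to 0.057 for FN1, -0.11 to 0.24 for SNAI1 and -0.41 to 0.20 for TWIST1 with i-BET858, -0.15 to 0.054 for EPCAM with i-BET151 and -0.018 to 0.18 for EPCAM between the inhibitors. For the changes between times it gave -0.32 to 0.044 for FN1 and -0.49 to 0.33 for TWIST1 with i-BET858, and -0.27 to 0.18 for CDH2, -0.34 to 0.077 for FN1 and -0.72 to 0.11 for TWIST1 with i-BET151. Between the DMSO groups it gave -0.17 to 0.095 for EPCAM and -0.53 to 0.18 for VIM.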

Other observations

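CDH1 and CDH6, the cadherin genes with the highest levels per kilobase of exons among those listed, went in opposite directions at 4 h with i-BET858. CDH1 went from 314 to 513 CPM, while CDH6 went from 1775 to 1095 CPM. At 24 h CDH6 no longer passed the test, with log2 fold changes of -0.10 (edgeR adjusted p = 0.610) for i-BET858 and -0.24 (edgeR adjusted p = 0.204) for i-BET151, and the change of its i-BET858 effect between the times was 0.64 (edgeR adjusted p = 0.00787). The change of its i-BET151 effect, 0.48, did not pass (edgeR adjusted p = 0.0620) and passed with the replicate block (adjusted p = 0.0120). Of the epithelial splicing regulators, ESRP1 was lower in all 4 comparisons, by log2 fold changes of -0.72 and -0.76 at 4 h and -0.72 and -0.51 at 24 h with i-BET858 and i-BET151, with edgeR adjusted p-values from 0.000351 to 0.00435. ESRP2 was lower at 4 h (-1.15 and -0.88), and at 24 h it was at -0.20 and -0.09 without passing the test. ESRP1 and ESRP2 were chosen after their values were seen.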
